A study of Mus musculus with 36 samples.

Results

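The genes described here code for 10 costimulatory and activation molecules of the immune cell surface, Cd40, Cd83, Cd69, Cd48, Cd80, Cd86, Cd274, Icosl, Cd47 and Slamf7. They were taken by symbol from the 19879 genes of the deposited tables. All 10 symbols were found, each in 1 row and in all 30 tables, and none was absent for low counts. The RNA came from BV-2, a mouse microglial cell line kept in culture, and was sequenced in 36 libraries that formed 12 groups of 3. The groups were 6 treatments, each sampled at 4 h and at 24 h. Cells received DMSO alone, ethanol (EtOH) alone, lipopolysaccharide (LPS, a bacterial cell wall component that activates microglia, at 600 ng/mL), or LPS together with 1 of 3 drugs. These were cannabidiol (CBD) at 6 µM and, both at 30 µM, dimethyl fumarate (DMF) and its metabolite monomethyl fumarate (MMF). DMSO carried DMF and MMF, EtOH carried CBD, the vehicle was kept at 0.2%, and serum was lowered to 0.1% in all groups when the treatments began. The vehicle given with LPS alone was not specified in the sources used here. All groups came from 1 cell line, so the replicates are separate experiments or cultures of that line and not separate animals, and no library was made with a drug in the absence of LPS.

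A T cell needs a second, costimulatory signal besides the antigen it recognises, and antigen-presenting cells give it through surface proteins of several families. CD40 is a receptor of the TNF receptor family that is triggered by CD40 ligand on T cells. CD80 and CD86 are ligands of the B7 family that bind CD28 and CTLA-4, ICOSL binds ICOS, and CD274 (PD-L1) is an inhibitory member of the family that binds PD-1. CD69 is an early activation marker of leukocytes, and CD83 is best known as a marker of mature dendritic cells. CD48 and SLAMF7 belong to the SLAM family of adhesion and signalling receptors. CD47 binds SIRPα on phagocytes and restrains the uptake of the cell that carries it. Activated microglia are known to raise CD40, CD80 and CD86.

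Reads counted on genes came to 14.1 M to 26.7 M per library. Of 12 markers of microglia and macrophages, 11 had reads in every library and Sall1 had none. Several markers of resting microglia were low, with P2ry12 at 15.8 to 102 and Tmem119 at 19.1 to 223 normalized counts per library. Of the 4 neuronal markers, Snap25 and Syt1 had no reads in any library, whereas Rbfox3 had reads in 5 libraries and Tubb3 in 23. Of the 4 astrocyte markers, Aqp4 had none, whereas Gfap had reads in 36 libraries, Aldh1l1 in 35 and Slc1a3 in 22. Of the 6 T cell markers, Cd3e, Cd3d, Cd3g, Cd4 and Cd8a reached at most 9.75 normalized counts in a library. Lck, the other T cell marker, lay at 51.2 to 199. In these bulk samples, fewer cells of a type and less RNA per cell cannot be told apart. The study itself named Cd40, Cd69, Cd83 and Cd48 from these same libraries, so the counts below are not independent evidence for those 4 genes.

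The promoters are shown first, as a description of their letters. RefSeq promoters (table build GRCm38.p6) were at hand for 6 of the 10 genes, Cd48, Cd80, Cd274, Icosl, Cd47 and Slamf7. Cd40, Cd83, Cd69 and Cd86 were not in the table. The 250 bases before the start were searched on both strands for the kB consensus bound by NF-kB, the core of the interferon-stimulated element (a pair of GAAA units with 2 free bases between them) and the AP-1 site (TGANTCA). A loose pattern (TGANNNNGC) for the core of the antioxidant response element bound by Nrf2 was searched as well. Overlapping matches of different motifs were allowed. The 5 sequences below are those of the 4 genes with a match and of Cd274, which was changed in most comparisons. They are written 5′ to 3′ on the strand of the gene, with matched letters in capitals, and the positions are those of an exact match in GRCm39, given as the coordinates of the plus strand.
Cd80, chr16.0:38279045-38279294, plus strand: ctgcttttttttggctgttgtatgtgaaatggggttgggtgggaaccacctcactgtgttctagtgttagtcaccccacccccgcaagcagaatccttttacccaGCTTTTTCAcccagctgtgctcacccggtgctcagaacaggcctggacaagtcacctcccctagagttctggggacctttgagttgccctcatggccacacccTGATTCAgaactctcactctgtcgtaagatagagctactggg
Slamf7, chr1.0:171476568-171476817, minus strand: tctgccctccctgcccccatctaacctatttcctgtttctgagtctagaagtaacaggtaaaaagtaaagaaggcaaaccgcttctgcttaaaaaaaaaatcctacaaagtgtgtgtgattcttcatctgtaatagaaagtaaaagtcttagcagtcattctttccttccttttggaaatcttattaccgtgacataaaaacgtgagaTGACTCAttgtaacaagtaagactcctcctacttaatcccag
Icosl, chr10.0:77904952-77905201, plus strand: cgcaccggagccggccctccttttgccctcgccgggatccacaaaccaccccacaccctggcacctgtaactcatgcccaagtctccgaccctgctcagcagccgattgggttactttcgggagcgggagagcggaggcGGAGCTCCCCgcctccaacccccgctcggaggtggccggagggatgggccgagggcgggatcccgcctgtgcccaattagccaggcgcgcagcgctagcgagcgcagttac
Cd48, chr1.0:171509310-171509559, plus strand: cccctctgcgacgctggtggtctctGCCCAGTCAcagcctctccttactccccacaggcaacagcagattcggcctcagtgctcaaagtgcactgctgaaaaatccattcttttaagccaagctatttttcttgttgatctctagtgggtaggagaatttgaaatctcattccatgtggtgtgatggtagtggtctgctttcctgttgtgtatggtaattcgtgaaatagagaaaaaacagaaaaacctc
Cd274, chr19.0:29344588-29344837, plus strand: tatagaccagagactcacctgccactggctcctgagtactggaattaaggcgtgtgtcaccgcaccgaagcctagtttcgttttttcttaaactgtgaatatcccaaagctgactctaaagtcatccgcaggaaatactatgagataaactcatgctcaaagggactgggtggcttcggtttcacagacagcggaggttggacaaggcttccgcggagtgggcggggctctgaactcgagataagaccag
The start in this table is that of the RefSeq transcript, which for Cd80 and Slamf7 lies 3372 and 4036 bases inside the gene span of the deposited tables, and for Cd47 55121 and 55128 bases inside it. An AP-1 match lay from 42 to 36 bases before the start in both Cd80 and Slamf7, a motif held by 6.75% of the 32851 promoters of the table in the same window. Icosl had 1 kB match, 111 to 102 bases before the start (7.25% of promoters). The loose Nrf2 pattern was matched once in Cd48 and once in Cd80, and 35.2% of all promoters hold it. With every letter between TGA and GC free, a match need not be an antioxidant response element. None of these motifs was found in the windows of Cd274 and Cd47. The interferon core (2.98% of promoters) was in none of the 7 windows of the 6 genes, Cd47 having a pair of overlapping windows. A match is a description of these letters and was not tested against any response.

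Levels between genes were compared per kilobase of annotated exon, on 1 normalized scale for all libraries. By the median over the 12 groups, Cd47 was the highest at 243 normalized counts per kilobase, followed by Cd40 at 166, Icosl at 129, Cd86 at 123 and Cd80 at 119.5. Cd274 lay at 62.6 and Cd69 at 31.1. The other 3 were low throughout, Cd48 at 14.0, Slamf7 at 5.22 and Cd83 at 5.04 normalized counts per kilobase. In those 3 genes a group of 3 libraries held as few as 12 reads (Cd48, LPS with CBD, 24 h), 20 reads (Slamf7, LPS with MMF, 4 h) and 15 reads (Cd83, LPS with DMF, 4 h), so their values carry the most counting error. The width of the range also differed, from 2.57-fold between the lowest and highest group mean in Cd80 to 15.0-fold in Cd69 and 15.7-fold in Slamf7.

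**Figure D1:**
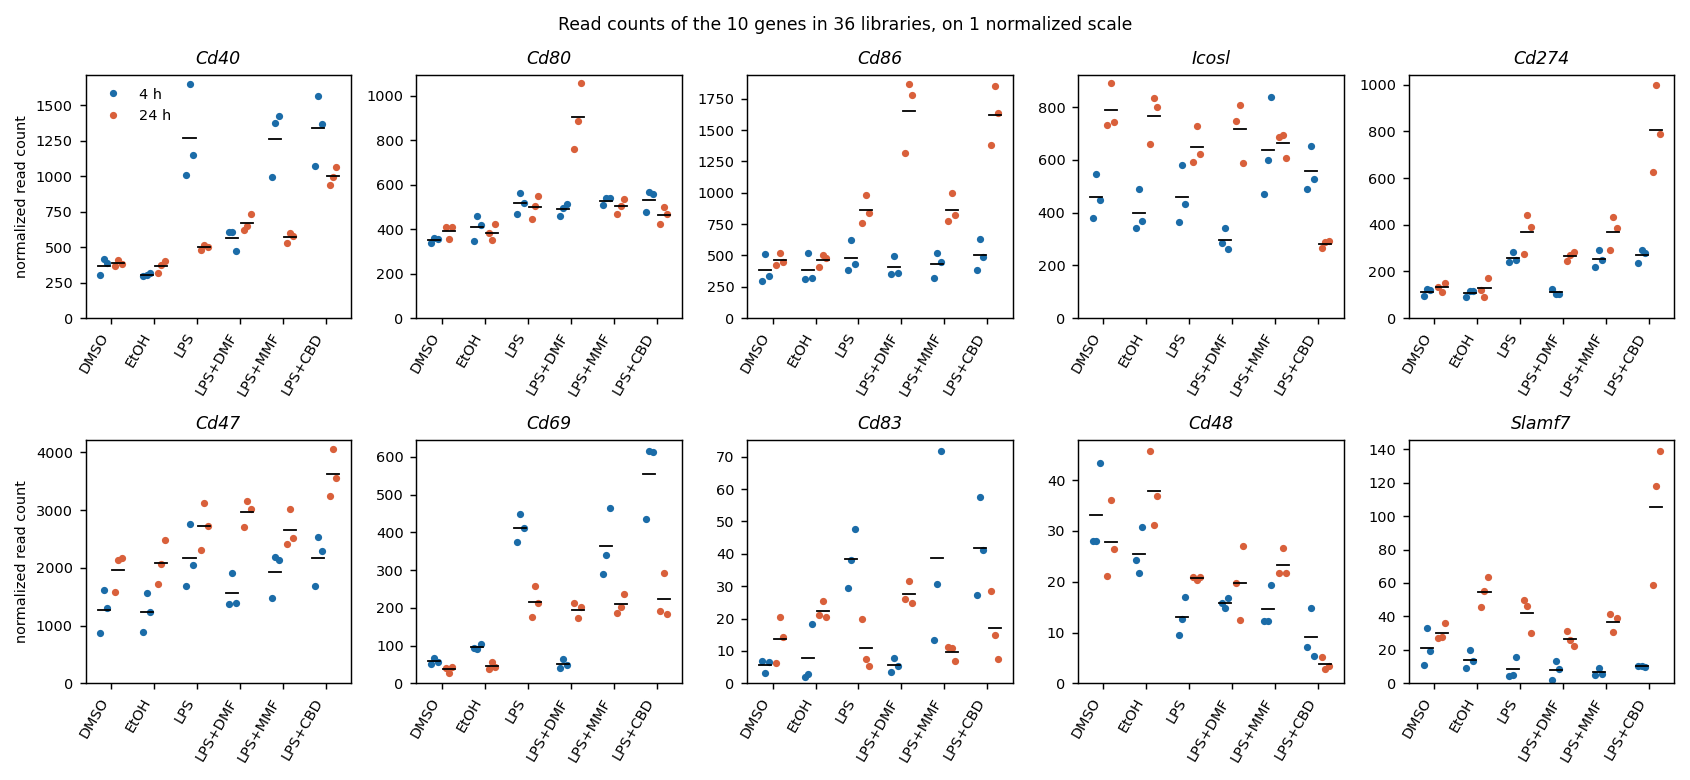
Normalized read counts (y axis, from 0, own scale per gene) of each gene in all 36 libraries, by treatment (x axis); blue points are 4 h, orange points 24 h, and bars are means of 3 libraries. Cd40, Cd69 and Cd83 stand high at 4 h in LPS, LPS+MMF and LPS+CBD but not in LPS+DMF, while Cd86 stands highest at 24 h in LPS+DMF and LPS+CBD.

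The comparisons were made with limma over all genes on log2 normalized counts with 1 added, so fold changes of low genes are understated, and calls were made where the p adjusted by Benjamini-Hochberg over all genes tested was under 0.05. A gene was tested when at least 3 of the 6 libraries of a comparison had 10 or more normalized counts. LPS changed 6 members at 4 h against DMSO (5 higher, 1 lower), where 14.1% of all genes tested were called (7.7% higher, 6.38% lower), and 4 against EtOH, all higher, where 10.2% were called (5.69% higher). At 24 h LPS changed 6 members against DMSO, all higher (22.7% of genes called, 12.1% higher), and 6 against EtOH, 5 higher and 1 lower (20.5%, with 10.8% higher and 9.72% lower). The same LPS libraries stand in both comparisons of a time point. Without LPS replicate 3 both 24 h counts were 3. DMF with LPS against LPS lowered 4 of 9 members tested at 4 h (11.1% of genes called, 6.51% lower) and raised 4 of 10 at 24 h (25.1%, with 11.9% higher), the latter being 2 without DMF replicate 3. MMF called 0 of 9 at 4 h (0.122% of genes called) and 0 of 10 at 24 h (0%), with 0 and 1 member (Cd40) at an unadjusted p under 0.05 in limma, and 0 members at either time by edgeR or DESeq2. DESeq2 gave no adjusted p for 2 members at 4 h and 4 at 24 h, so it could not call those. With the replicate number as a block, limma called 0 members for MMF at either time. Over all genes that block called 179 of 11431 at 4 h, where the libraries were not taken as paired, and 206 of 11584 at 24 h. CBD called 0 of 9 at 4 h (0.00875%), at log2 fold changes of -0.54 to 0.42, with 1 member (Cd69) at an unadjusted p under 0.05 and 0 by edgeR or DESeq2. At 24 h CBD raised 5 and lowered 2 of 10 members, against a background in which 48.7% of all genes were called (23.9% higher, 24.8% lower). That share is near the background and by count is not a result about these genes. Over the members, the median log2 fold change was 0.66 for LPS against DMSO at 4 h and -0.62 for DMF against LPS at 4 h, where the medians over all genes tested were -0.00046 and 0.0056.

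**Figure D2:**
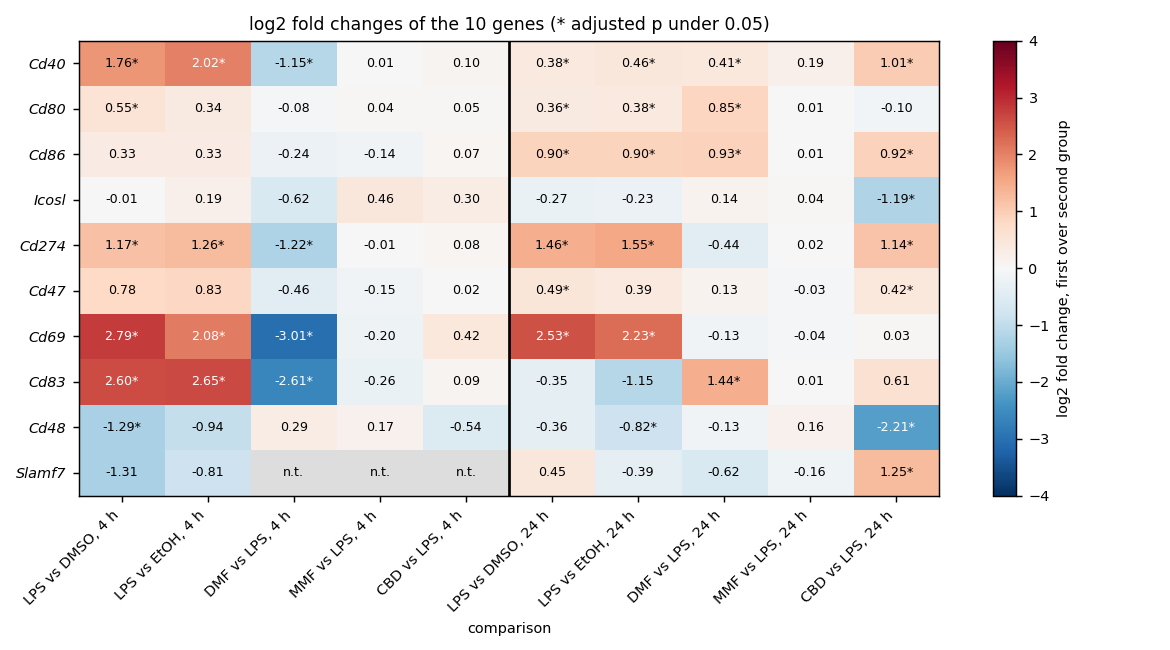
log2 fold change (colour and number, red for higher and blue for lower in the first-named group) of each gene (rows) in 10 comparisons (columns, 4 h left of the line and 24 h right of it); * marks an adjusted p under 0.05 and n.t. a gene that was not tested. The DMF column at 4 h is blue for Cd40, Cd274, Cd69 and Cd83, and the MMF columns hold no marked cell.

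Cd40 (chr2:164897547-164914868, plus strand, GRCm39) was raised by LPS at both times, far more at 4 h than at 24 h. At 4 h its normalized counts were 299.9, 415 and 384 in the DMSO libraries, 295, 303 and 317 in EtOH and 1009, 1647 and 1145 in LPS, so that each LPS library lay above each vehicle library. The log2 fold change was 1.76 ± 0.19 SE, adjusted p = 0.00081 against DMSO and 2.02 ± 0.16, adjusted p = 0.000289 against EtOH. At 24 h LPS gave 479, 513 and 503 against 364, 412 and 382 in DMSO and 321, 375 and 405 in EtOH, log2 fold changes of 0.38, adjusted p = 0.0125 against DMSO and 0.46, adjusted p = 0.012 against EtOH. The fall of the effect between the times passed its own test (-1.38 ± 0.22 SE, adjusted p = 0.00224 against DMSO, and -1.56 ± 0.20 SE, adjusted p = 0.000739 against EtOH). The 24 h calls were lost without LPS replicate 3 (log2 fold change 0.38, adjusted p = 0.0532) and, against EtOH, without LPS replicate 3 (log2 fold change 0.45, adjusted p = 0.0548). With DMF the 4 h counts were 605, 604 and 474, all below LPS alone (-1.15 ± 0.18 SE, adjusted p = 0.00392) and still above DMSO (0.61, adjusted p = 0.0179). The latter call was lost without DMSO replicate 4 or DMF replicate 1 (log2 fold change 0.47 to 0.55, adjusted p = 0.0503 to 0.0577). At 24 h the direction turned, with 619.5, 647 and 731 under DMF, above LPS alone (0.41 ± 0.09 SE, adjusted p = 0.00867). That rise was lost without DMF replicate 3 (log2 fold change 0.34, adjusted p = 0.0558). CBD gave 1071, 1565 and 1369.9 at 4 h, overlapping LPS, and 939, 993 and 1067 at 24 h, a 2.01-fold rise over LPS (1.01 ± 0.09 SE, adjusted p = 2.62e-05). In the order of the 12 group means, the 3 groups LPS with CBD, LPS and LPS with MMF at 4 h (1335, 1267 and 1262) did not differ beyond their spread, and the 4 vehicle groups stood lowest, from 305 to 386.

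Cd80 and Cd86, the ligands of CD28, were raised together by DMF at 24 h, whereas with CBD at 24 h Cd86 rose and Cd80 made no call. Cd80 (chr16:38275923-38316697, plus strand) had group means between 351 (DMSO, 4 h) and 533 (LPS with CBD, 4 h) in 11 of the groups, and stood apart in LPS with DMF at 24 h. There it reached 762, 885 and 1059 normalized counts against 443, 504 and 548 with LPS alone, and the groups did not overlap (0.85 ± 0.12 SE, adjusted p = 0.00137). At 4 h DMF left it at 461, 494 and 512 against 468, 561 and 519 (-0.08, adjusted p = 0.713). LPS raised Cd80 over DMSO at 4 h (0.55, adjusted p = 0.00829), over DMSO at 24 h (0.36, adjusted p = 0.0312) and over EtOH at 24 h (0.38, adjusted p = 0.0312), and the value over EtOH at 4 h was 0.34, adjusted p = 0.122. Against DMSO at 24 h the call was lost without DMSO replicate 5 or 6 or LPS replicate 2 or 3 (log2 fold change 0.29 to 0.39, adjusted p = 0.0509 to 0.14), and against EtOH without EtOH replicate 4 or 5 or LPS replicate 2 or 3 (log2 fold change 0.32 to 0.37, adjusted p = 0.055 to 0.15). With CBD the 24 h counts were 424, 498 and 469.9, with a log2 fold change of -0.10, adjusted p = 0.485. Timmdc1, on the opposite strand, overlaps the annotated exons of Cd80. Its own difference between DMF and LPS at 24 h was -0.01 on the log2 scale, and its part in the Cd80 values was not tested.

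Cd86 (chr16:36424231-36486443, minus strand) was called above vehicle at 24 h, and made no call at 4 h, in every treatment that contained LPS. At 4 h LPS gave 386, 623 and 429 normalized counts, overlapping DMSO at 297, 514 and 337 and EtOH at 314, 517 and 323, and no call was made against either vehicle (0.33, adjusted p = 0.382 and 0.33, adjusted p = 0.428). For LPS with CBD against EtOH at 4 h a call was gained without EtOH replicate 5 (log2 fold change 0.64, adjusted p = 0.0451). At 24 h LPS gave 760.0, 983 and 834, all above DMSO at 427, 517 and 447 (0.90 ± 0.11 SE, adjusted p = 0.000252) and EtOH at 407, 506 and 476 (0.90 ± 0.12, adjusted p = 0.000306). DMF lifted the 24 h values to 1314, 1864 and 1781 (0.93 ± 0.13 SE, adjusted p = 0.00123 against LPS). CBD lifted them to 1381, 1849.9 and 1635 (0.92 ± 0.13 SE, adjusted p = 0.000327 against LPS). These were the highest group means of the gene, 1653 ± 297 and 1622 ± 235 (SD, n = 3), and the next, LPS with MMF at 24 h, was 865 ± 118. In all 12 groups the library numbered 1 or 4 in the labels was the lowest for Cd86 and the one numbered 2 or 5 the highest.

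Icosl (chr10:77905136-77919747, plus strand), the ligand of ICOS on T cells, fell with CBD at 24 h while most of the members that changed rose. At 24 h its counts were 265, 289.7 and 290.3 with CBD against 593, 726 and 622 with LPS alone and 659.8, 835 and 802 in EtOH. Each CBD library lay below each LPS and EtOH library, and the log2 fold change was -1.19 ± 0.10 SE, adjusted p = 3.05e-05 against LPS and -1.43 ± 0.11, adjusted p = 7.49e-06 against EtOH. At 4 h CBD gave 490.1, 653 and 529 against 364, 580.0 and 434 with LPS (0.30, adjusted p = 0.994). LPS itself made no call on Icosl at either time, with log2 fold changes from -0.27 (DMSO, 24 h) to 0.19 (EtOH, 4 h). Against DMSO at 24 h a call, lower with LPS, was gained without LPS replicate 2 (log2 fold change -0.36, adjusted p = 0.0251). With DMF the 4 h counts were 284, 341 and 262, each below each LPS library, without passing the threshold (-0.62 ± 0.18 SE, adjusted p = 0.0598). With the replicate number as a block, in a comparison taken as paired by number, the adjusted p was 0.0103, and by DESeq2 it was 0.0134. It also passed without LPS replicate 1 or DMF replicate 2 (log2 fold change -0.77 to -0.73, adjusted p = 0.0354 to 0.0394). Against DMSO the fall under DMF at 4 h passed (-0.63, adjusted p = 0.0196), and it was lost without DMSO replicate 5 or 6 or DMF replicate 3 (log2 fold change -0.64 to -0.49, adjusted p = 0.0659 to 0.075).

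Cd274 (chr19:29344855-29365495, plus strand), the inhibitory ligand of PD-1, was raised by LPS against both vehicles at both times. At 4 h it measured 241, 282 and 247 with LPS, 96.3, 125 and 120.2 in DMSO and 89.8, 116 and 115 in EtOH (1.17 ± 0.14 SE, adjusted p = 0.00146 and 1.26 ± 0.14, adjusted p = 0.00134). At 24 h it measured 274, 441 and 388 with LPS, 135, 113 and 151 in DMSO and 119, 92.3 and 170.5 in EtOH (1.46 ± 0.18 SE, adjusted p = 0.000184 and 1.55 ± 0.22, adjusted p = 0.000508). The LPS libraries did not overlap the vehicle libraries at either time. DMF brought the 4 h counts to 125, 104 and 101, below every LPS library (-1.22 ± 0.14 SE, adjusted p = 0.000969), and the difference from DMSO was then -0.06 (95% interval -0.44 to 0.33, adjusted p = 0.834). At 24 h DMF gave 243, 270.4 and 285, overlapping LPS and missing the threshold (-0.44, adjusted p = 0.0654). The blocked adjusted p was 0.0103, and the unblocked call was gained without LPS replicate 1 (log2 fold change -0.63, adjusted p = 0.00618). CBD at 24 h gave the highest values, 626, 998 and 790.0 (1.14 ± 0.20 SE, adjusted p = 0.00132 against LPS), 6.40-fold over EtOH. Plgrkt lies on the opposite strand, and its start, at 29344824, is just before the deposited start of Cd274. The genes thus start beside each other and run in opposite directions. Their exons overlap in the reference annotation, where Cd274 starts at 29344529 and not at the deposited 29344855. Plgrkt rose from a mean of 653 normalized counts with LPS to 1290.1 with CBD at 24 h (adjusted p = 0.000208), and by 0.51 and 0.60 on the log2 scale with LPS against DMSO and EtOH at 24 h (adjusted p = 0.0116 and 0.00794). Whether the authors counted reads by strand is not given in the sources used here, and its part in the Cd274 values was not tested.

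Cd69, the early activation marker, had the largest log2 fold changes under LPS at both times and under DMF at 4 h of the 8 members above 50 normalized counts. At 4 h LPS gave 375, 448 and 412 normalized counts against 51.2, 67.7 and 57.4 in DMSO and 93.9, 91.7 and 105 in EtOH, a 6.91-fold and a 4.22-fold rise (2.79 ± 0.15 SE, adjusted p = 1.78e-05 and 2.08 ± 0.11, adjusted p = 3.87e-05). The rise was also called at 24 h, at 175, 259 and 214 against 41.1, 27.6 and 42.1 in DMSO and 37.1, 56.5 and 43.6 in EtOH (2.53, adjusted p = 1.23e-05 and 2.23, adjusted p = 2.02e-05). DMF at 4 h held the counts at 39.7, 64.8 and 49.4, inside or below the range of DMSO and far under LPS (-3.01 ± 0.19 SE, adjusted p = 4.65e-05). Against DMSO the difference was -0.22 (95% interval -0.75 to 0.31, adjusted p = 0.532). At 24 h, by contrast, DMF gave 212, 173 and 201, overlapping LPS alone, with a difference of -0.13 (95% interval -0.47 to 0.20, adjusted p = 0.55). CBD gave 436, 616 and 612 at 4 h, and the lowest of these lay within the range of LPS. In the order of group means CBD at 4 h stood apart from LPS beyond the sum of their spreads, although the test across all genes did not call it (0.42, adjusted p = 0.994). The gene lies at chr6:129244288-129252399 on the minus strand.

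Cd83 (chr13:43938251-43956608, plus strand) followed a similar course at 4 h on far fewer reads. LPS at 4 h gave 29.5, 38.0 and 47.7 normalized counts (109 reads in all) against 7.02, 3.22 and 6.50 in DMSO (16 reads) and 2.02, 2.96 and 18.2 in EtOH (24 reads). The log2 fold changes were 2.60 ± 0.36 SE, adjusted p = 0.00251, and 2.65 ± 0.65, adjusted p = 0.0355, of which the second was lost without EtOH replicate 4 or 5 or LPS replicate 1, 2 or 3 (log2 fold change 2.14 to 2.82, adjusted p = 0.0561 to 0.132). DMF at 4 h gave 3.40, 7.96 and 5.26 (15 reads), below every LPS library (-2.61 ± 0.37 SE, adjusted p = 0.00251). At 24 h the vehicles held 6.32, 20.4 and 14.5 in DMSO and 21.0, 25.4 and 20.5 in EtOH. LPS gave 19.9, 7.49 and 5.45, with no call (-0.35, adjusted p = 0.684 against DMSO and -1.15, adjusted p = 0.0841 against EtOH). Against EtOH a fall was called without LPS replicate 1 (log2 fold change -1.66, adjusted p = 0.0103). With DMF the 24 h counts were 26.1, 31.7 and 24.8, above every LPS library and overlapping EtOH (1.44 ± 0.42 SE, adjusted p = 0.0304 against LPS). That call rests on few reads (86 against 32) and was lost without LPS replicate 2 or 3 or DMF replicate 1, 2 or 3 (log2 fold change 1.09 to 1.51, adjusted p = 0.0539 to 0.106). No neighbouring pair of its 12 group means differed beyond their spread. Cd83 was under the limit for testing in DMF against DMSO and DMSO against EtOH at 4 h and between the times in DMSO.

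The 2 SLAM family members were low, and CBD at 24 h moved them in opposite directions. Cd48 (chr1:171509577-171532826, plus strand) was lowest in LPS with CBD at 24 h, at 5.27, 2.79 and 3.41 normalized counts (12 reads) against 21.0, 20.3 and 21.0 with LPS (65 reads) and 45.8, 31.1 and 36.8 in EtOH (-2.21 ± 0.36 SE, adjusted p = 0.000835 against LPS, -3.06 ± 0.35, adjusted p = 7.16e-05 against EtOH). Each CBD library lay below each of the others. LPS at 4 h gave 9.49, 12.7 and 17.0 against 28.1, 27.9 and 43.3 in DMSO, a fall (-1.29, adjusted p = 0.0279) that was lost without DMSO replicate 4, 5 or 6 or LPS replicate 1 (log2 fold change -1.39 to -1.08, adjusted p = 0.053 to 0.13) and without the filter on low values (adjusted p = 0.0503). Against EtOH at 4 h the value was -0.94, adjusted p = 0.0903. At 24 h the fall against EtOH (-0.82, adjusted p = 0.0379) was lost without EtOH replicate 4 or 6 or LPS replicate 1, 2 or 3 (log2 fold change -0.83 to -0.68, adjusted p = 0.0644 to 0.118), by DESeq2 (adjusted p = 0.0565) and without the filter (0.0897). Against DMSO it was -0.36, adjusted p = 0.385.

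Slamf7 (chr1:171459971-171480603, minus strand) was highest where Cd48 was lowest. LPS with CBD at 24 h held 59.0, 118 and 139 normalized counts (346 reads) against 49.6, 46.0 and 30.3 with LPS (127 reads), a 2.38-fold rise (1.25 ± 0.32 SE, adjusted p = 0.0101). The lowest CBD library lay within the range of EtOH, which held 45.8, 55.4 and 63.4, and the rise against EtOH (0.86, adjusted p = 0.0348) was lost without EtOH replicate 4 or 5 or CBD replicate 2 or 3 (log2 fold change 0.62 to 0.87, adjusted p = 0.0758 to 0.118). LPS against vehicle made no call on Slamf7, at -1.31, adjusted p = 0.147 (DMSO, 4 h), -0.81, adjusted p = 0.379 (EtOH, 4 h), 0.45, adjusted p = 0.242 (DMSO, 24 h) and -0.39, adjusted p = 0.298 (EtOH, 24 h). At 4 h Slamf7 had 20 to 60 reads per group and was not tested in the comparisons of a drug with LPS or of DMF with MMF. DMF at 24 h gave 31.3, 26.0 and 22.5, with an adjusted p of 0.0974 without a block and 0.0441 with it (log2 fold change -0.62).

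Cd47 (chr16:49620896-49735373, plus strand), the ligand of SIRPα, was the most abundant member and differed by up to 2.94-fold between groups. At 4 h LPS gave 1689.9, 2754 and 2053 normalized counts, all above DMSO at 877, 1608 and 1311 and EtOH at 883, 1570.5 and 1238, yet neither difference passed the test (0.78, adjusted p = 0.0579 and 0.83, adjusted p = 0.0573). They passed when all 18 libraries of the time point shared 1 fit (0.0392 and 0.0404). Single libraries also changed them, and the call against DMSO was gained without DMSO replicate 5 or LPS replicate 1 (log2 fold change 0.95 to 0.99, adjusted p = 0.0383 to 0.0391) and that against EtOH without EtOH replicate 5 or LPS replicate 1 (log2 fold change 0.99 to 1.02, adjusted p = 0.0267 to 0.0411). In all 12 groups the library numbered 1 or 4 was the lowest. At 24 h LPS gave 2305, 3121 and 2724 against 1577, 2133 and 2171 in DMSO (0.49, adjusted p = 0.0237), a call lost without DMSO replicate 4 or LPS replicate 3 (log2 fold change 0.34 to 0.48, adjusted p = 0.0659 to 0.0827). Against EtOH it was 0.39, adjusted p = 0.0649, gained by DESeq2 (adjusted p = 0.0322) and without EtOH replicate 6 or LPS replicate 1 (log2 fold change 0.51 to 0.53, adjusted p = 0.0219 to 0.0232). DMF at 4 h gave 1374, 1916 and 1395 (-0.46, adjusted p = 0.168), with a blocked adjusted p of 0.0103. The highest mean was that of CBD at 24 h, 3617 ± 413 (SD, n = 3), from 3236, 4056 and 3558 (0.42 ± 0.12 SE, adjusted p = 0.0157), and that call was lost without LPS replicate 1 (log2 fold change 0.31, adjusted p = 0.0533).

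Other values moved with the same treatments and are given as sums over each whole marker list, in normalized counts per library. Of the 12 microglia and macrophage markers the sum was 25494 to 30467 in LPS with DMF and 31703 to 34765 in LPS with MMF at 4 h, below the 35345 to 41172 of LPS alone, and 4 of 11 tested were called lower with DMF, with 0 higher. At 24 h the sums were 40442 to 47391 with DMF, 33303 to 43727 with CBD and 33963 to 44668 with LPS alone. The 6 T cell markers summed to 149.5 to 203 with CBD and 106 to 122 with DMF at 24 h against 70.6 to 87.9 with LPS alone, and at 4 h to 86.7 to 100.4 with CBD against 76.3 to 86.4. Lck was the 1 T cell gene tested and made up most of these sums. The 5 B cell markers were higher with DMF at both times, at 23.1 to 29.6 against 14.8 to 21.1 at 4 h and 24.9 to 28.2 against 10.7 to 17.1 at 24 h. The 5 dendritic cell markers were lower with each drug at 24 h, at 221 to 271 with DMF, 272 to 302 with MMF and 225 to 256 with CBD against 311 to 328. The 4 oligodendrocyte markers were at 726 to 885 with CBD against 1112 to 1442 at 24 h, and at 799.7 to 1061 with DMF and 1042 to 1068 with CBD against 1082 to 1097 at 4 h. The 4 fibroblast markers were at 13.9 to 16.2 with CBD against 5.45 to 7.72 at 24 h, and 2.02 to 3.20 against 1.05 to 1.06 at 4 h, and the 4 neuronal markers at 1.13 to 6.27 with DMF and 0.85 to 4.22 with CBD against 0 in all LPS libraries at 24 h. In the other drug groups these sums, and those of the 4 astrocyte markers, overlapped LPS alone. The part of these values in the results was not tested.

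DMF and MMF, the dimethyl and the monomethyl ester of fumaric acid, were given at the same dose and times, so they were compared directly, in 9 genes at 4 h and 10 at 24 h. At 4 h 5 members were lower with DMF (8.34% of all genes called, 4.97% lower). The differences were -1.17 (95% interval -1.51 to -0.82, adjusted p = 0.00234) for Cd40, -2.81 (95% interval -3.30 to -2.31, adjusted p = 0.000177) for Cd69 and -1.21 (95% interval -1.57 to -0.85, adjusted p = 0.00234) for Cd274. Icosl differed by -1.08 (95% interval -1.51 to -0.65, adjusted p = 0.0091), with 472, 601 and 839 normalized counts under MMF, and Cd83 by -2.35 (95% interval -3.60 to -1.10, adjusted p = 0.0298). The Cd83 difference was lost without MMF replicate 2 or 3 or DMF replicate 1 or 3 (log2 fold change -2.35 to -1.76, adjusted p = 0.0785 to 0.125). For the 4 other members tested at 4 h the intervals were -0.34 to 0.10 for Cd80, -0.52 to 0.34 for Cd86, -0.70 to 0.08 for Cd47 and -0.62 to 0.87 for Cd48. At 24 h 3 members were higher and 1 lower with DMF (21.5% of genes called, 10.1% higher and 11.4% lower). Cd86 differed by 0.92 (95% interval 0.62 to 1.23, adjusted p = 0.00205), Cd80 by 0.83 (95% interval 0.57 to 1.09, adjusted p = 0.00169) and Cd83 by 1.43 (95% interval 0.79 to 2.08, adjusted p = 0.00863). Cd274 differed by -0.46 (95% interval -0.77 to -0.14, adjusted p = 0.0451), a call lost when all libraries of the time shared 1 fit (adjusted p = 0.151) and without MMF replicate 2 or 3 or DMF replicate 1, 2 or 3 (log2 fold change -0.51 to -0.34, adjusted p = 0.0873 to 0.146). Plgrkt had a log2 fold change of -0.37 in the same comparison (adjusted p = 0.0249). With the block, Cd40 and Cd47 passed as well at 24 h (log2 fold changes 0.22 and 0.16, adjusted p = 0.0203 and 0.0186), which brought the count to 6. That count belongs beside the genes called with the block, 4639 of 11665, where 2508 were called without it. Cd69 made no call between the compounds at 24 h, with an interval of -0.38 to 0.19. For the other 3 members the 24 h intervals were -0.16 to 0.36 for Icosl, -0.97 to 0.39 for Cd48 and -0.97 to 0.05 for Slamf7.

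**Figure D3:**
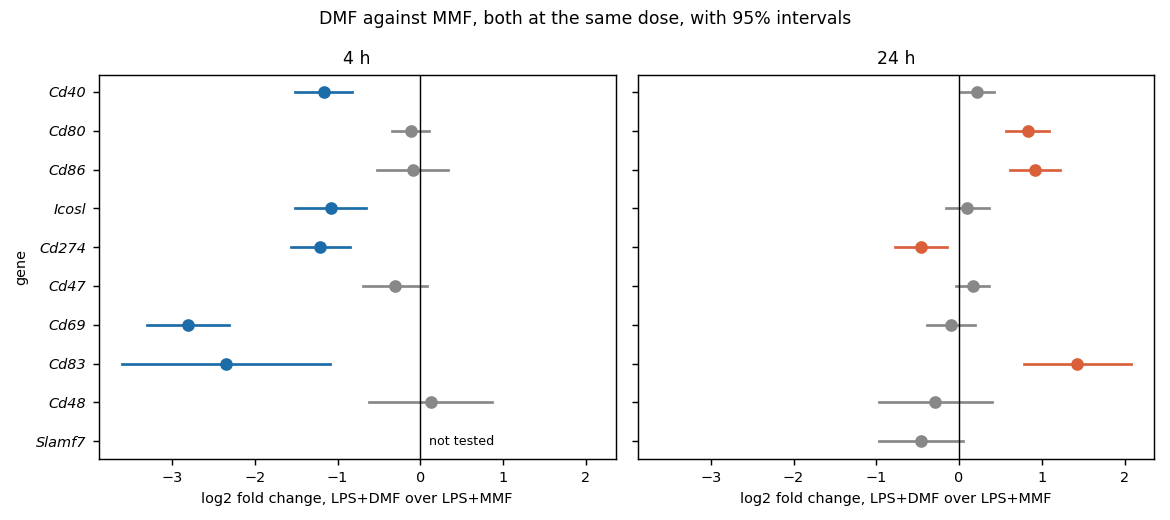
log2 fold change of LPS+DMF over LPS+MMF (x axis, points) with 95% intervals (lines) for each gene (y axis) at 4 h and 24 h; coloured genes had an adjusted p under 0.05 and grey genes did not. Cd69 lies at -2.81 at 4 h and -0.10 at 24 h, while Cd80 and Cd86 lie near 0 at 4 h and at 0.83 and 0.92 at 24 h.

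Against LPS alone, MMF left every tested member without a call, and the intervals bound what could have been missed. For Cd69 the interval was -0.56 to 0.17 at 4 h and -0.38 to 0.31 at 24 h, and for Cd40 -0.40 to 0.43 and 0.00 to 0.38. Over the members tested the log2 fold changes with MMF ran from -0.26 to 0.46 at 4 h and -0.16 to 0.19 at 24 h. For Cd80 at 24 h the interval was -0.21 to 0.24 and for Cd86 -0.25 to 0.27. Cd83 at 4 h was loosely bounded, at -1.38 to 0.85, from libraries at 13.4, 30.6 and 71.7. CBD was given at 6 µM, another dose than the fumarates, so its values are set beside theirs without a comparison. At 24 h the log2 fold changes against LPS, in the order DMF, MMF, CBD, were 0.93, 0.01 and 0.92 for Cd86. For Cd80 they were 0.85, 0.01 and -0.10. For Cd274 they were -0.44, 0.02 and 1.14. For Icosl they were 0.14, 0.04 and -1.19. All these comparisons share the LPS libraries.

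Set against vehicle, LPS with DMF at 4 h called 4 of 9 members (2 higher and 2 lower, where 23.5% of genes were called, 11.4% higher and 12.1% lower). On the log2 scale these were Cd40 (0.61) and Cd80 (0.47), and lower Icosl (-0.63) and Cd48 (a fold of 0.502), with Cd69, Cd86, Cd274, Cd47 and Slamf7 from -1.40 to 0.32. The DMF count was 2 without DMSO replicate 4, 5 or 6 or DMF replicate 1 or 3. The Cd48 call was lost when any of the 6 libraries was left out (adjusted p = 0.0523 to 0.156). LPS with MMF called 5 of 10, all higher (8.22% of genes called, 5.12% higher), Cd40 (1.78), Cd83 (2.34), Cd69 (2.59), Cd80 (0.59) and Cd274 (1.16), with Cd48, Cd86, Icosl, Cd47 and Slamf7 from -1.43 to 0.63. The Cd83 call was lost in 5 of the 6 fits that left out 1 library (adjusted p = 0.0504 to 0.106). LPS with CBD called 6 of 10 against EtOH at 4 h (5 higher and 1 lower, where 13.6% of genes were called, 7.52% higher and 6.05% lower), and 3 without EtOH replicate 4 or CBD replicate 3. The 6 were Cd40 (2.12), Cd83 (2.75), Cd69 (2.50), Cd274 (1.34) and Cd47 (0.84), and Cd48 (-1.48), with Cd80, Cd86, Icosl and Slamf7 from -0.37 to 0.49. Of the 6 fits that left out 1 library, 5 lost Cd48 (adjusted p = 0.052 to 0.153), 4 lost Cd47 (0.0764 to 0.117) and 3 lost Cd83 (0.0728 to 0.0915). By DESeq2 the count was 8, with Cd80 and Icosl added (adjusted p = 0.0278 and 0.0153). At 24 h LPS with DMF called 7, all higher (40.2% of genes called, 20% higher), Cd40 (0.80), Cd83 (1.09), Cd69 (2.41), Cd80 (1.21), Cd86 (1.84), Cd274 (1.02) and Cd47 (0.63), with Cd48, Icosl and Slamf7 from -0.49 to -0.13. The Cd83 call among them was lost by DESeq2 (adjusted p = 0.0694), without the filter (0.0678), with all libraries in 1 fit (0.0731) and without DMSO replicate 4 or 6 or DMF replicate 1, 2 or 3 (log2 fold change 0.66 to 1.19, adjusted p = 0.0674 to 0.119). LPS with MMF called 6, all higher (22.4% of genes called, 12.5% higher), Cd40 (0.58), Cd69 (2.50), Cd80 (0.38), Cd86 (0.91), Cd274 (1.48) and Cd47 (0.46), with Cd83, Cd48, Icosl and Slamf7 from -0.33 to 0.29. The Cd80 and Cd47 calls were each lost in 2 of the 6 fits that left out 1 library (adjusted p = 0.0623 to 0.072 and 0.0531 to 0.0658). With CBD at 24 h the count was 8, 6 higher and 2 lower (50.5% of genes called, 25.5% higher and 25% lower), Cd40 (1.45), Cd69 (2.26), Cd86 (1.81), Cd274 (2.68), Cd47 (0.81) and Slamf7 (0.86), and Cd48 (-3.06) and Icosl (-1.43), with Cd83 and Cd80 from -0.54 to 0.28. Cd86 stood 3.58-fold over DMSO with DMF and 3.50-fold over EtOH with CBD at 24 h (1.84 ± 0.13, adjusted p = 3.38e-06 and 1.81 ± 0.12, adjusted p = 3.69e-06). The vehicles themselves were compared as a control, and limma called 0 of 9 members at 4 h (0% of genes called) and 0 of 10 at 24 h (0.00854%), with Cd69 at 4 h and Slamf7 at 24 h at an unadjusted p under 0.05 and 0 by edgeR or DESeq2. DESeq2 gave no adjusted p for 1 member at 4 h. Between the vehicles the log2 fold changes ran from -0.71 to 0.50 at 4 h and -0.84 to 0.09 at 24 h. With the replicate block, in comparisons taken as paired by number, Cd69 was called at 4 h (log2 fold change -0.71, adjusted p = 0.0178), lower in DMSO. With that block 876 of 11458 genes were called between the vehicles at 4 h and 20 of 11715 at 24 h.

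The effect of DMF changed between the times in 7 members, all toward higher values at 24 h, in a test where 16.4% of genes were called (8.26% higher). Cd40 went from -1.15 to 0.41 on the log2 scale against LPS, Cd83 from -2.62 to 1.43 and Cd69 from -3.01 to -0.14. Cd80, Cd86, Cd274 and Icosl were the others. Of these, Cd274 (0.78 ± 0.22 SE, adjusted p = 0.0292) was lost without LPS at 4 h replicate 2 or 3, DMF at 4 h replicate 3, LPS at 24 h replicate 1 or DMF at 24 h replicate 2 or 3 (log2 fold change 0.58 to 0.80, adjusted p = 0.0525 to 0.0784), and Icosl (0.75 ± 0.23 SE, adjusted p = 0.0415) without LPS at 4 h replicate 2 or 3, DMF at 4 h replicate 1 or 3, LPS at 24 h replicate 1 or 3 or DMF at 24 h replicate 1 or 2 (log2 fold change 0.57 to 0.77, adjusted p = 0.069 to 0.109). The effect of CBD changed in 5 members, 3 toward higher and 2 toward lower values (31.9% of genes called, 15.5% higher and 16.5% lower). The CBD change of Cd48 (-1.65 ± 0.55 SE, adjusted p = 0.0349) was lost without LPS at 4 h replicate 1 or 2, CBD at 4 h replicate 2, LPS at 24 h replicate 1, 2 or 3 or CBD at 24 h replicate 2 or 3 (log2 fold change -1.67 to -1.27, adjusted p = 0.0524 to 0.088). That of Cd86 (0.85 ± 0.27 SE, adjusted p = 0.0263) was lost without CBD at 4 h replicate 1 or 3, LPS at 24 h replicate 1 or 3 or CBD at 24 h replicate 2 or 3 (log2 fold change 0.68 to 0.85, adjusted p = 0.052 to 0.0635). The count was 3 without LPS at 24 h replicate 1 or 3 or CBD at 24 h replicate 2 or 3. With the block, Cd47 changed as well under both drugs (0.59 with DMF and 0.41 with CBD, adjusted p = 0.00403 and 0.0072). That block joins both times, and the libraries with DMF or with CBD were not taken as paired between the times. Without it Cd47 was not called (adjusted p = 0.104 and 0.223). The effect of MMF changed in 0 members (0% of genes called) by limma or by edgeR, with 0 at an unadjusted p under 0.05. The effect of LPS changed in 2 members against DMSO (9.36% of genes called, 4.38% lower) and 2 against EtOH (9.05%, with 4.36% lower), Cd40 and Cd83 in both, each toward a lower value at 24 h. For Cd83 the change was -2.94 ± 0.68 SE, adjusted p = 0.0164 and -3.82 ± 0.83 SE, adjusted p = 0.0115.

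**Figure D4:**
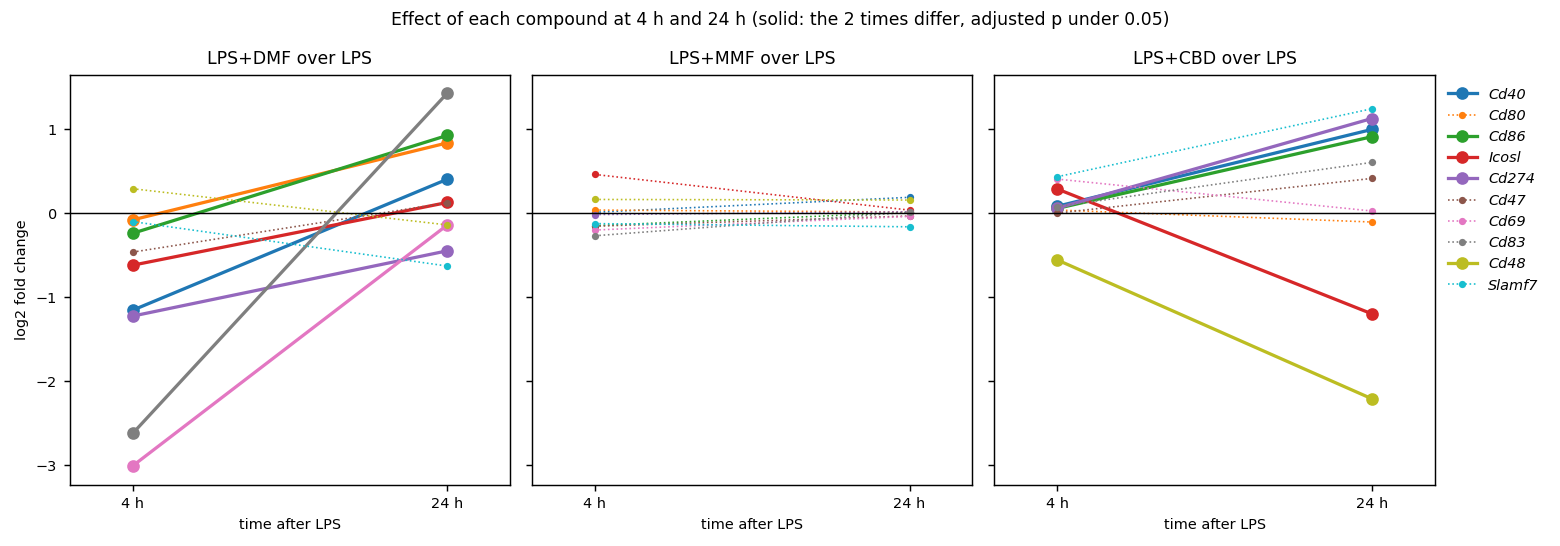
log2 fold change over LPS (y axis) at 4 h and 24 h (x axis) for each gene with DMF, MMF and CBD, from 12 libraries per panel on 1 scale; solid lines mark genes whose effect differed between the times at an adjusted p under 0.05. The DMF lines run upward except those of Cd48 and Slamf7, with Cd83 from -2.62 to 1.43, the MMF lines stay near 0, and the CBD lines spread at 24 h, with Cd48 at -2.21 and Cd274 at 1.13.

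Within a treatment, 24 h against 4 h called 3 of 9 members in DMSO (51.6% of genes called), 5 of 10 in EtOH (58.6%), 7 in LPS (48.9%), 8 with DMF (58.8%), 7 with MMF (49.5%) and 8 of 9 with CBD (63.2%). The members called were Icosl (0.77) and Cd47 (0.64) and Cd69 (-0.69) in DMSO, with Cd40, Cd48, Cd80, Cd86, Cd274 and Slamf7 from -0.27 to 0.59. In EtOH they were Cd83 (1.93), Icosl (0.92), Cd47 (0.76) and Slamf7 (1.93), and Cd69 (-1.10), with Cd40, Cd48, Cd80, Cd86 and Cd274 from -0.10 to 0.53. In LPS they were Cd86 (0.86), Cd274 (0.49), Icosl (0.51) and Slamf7 (2.35), and Cd40 (-1.32), Cd83 (-1.89) and Cd69 (-0.95), with Cd48, Cd80 and Cd47 from -0.06 to 0.66. The positive and negative signs give higher and lower values at 24 h. With DMF all 8 were higher, Cd83 (2.16), Cd69 (1.92), Cd80 (0.86), Cd86 (2.03), Cd274 (1.27), Icosl (1.26), Cd47 (0.93) and Slamf7 (1.82), with Cd40 and Cd48 from 0.24 to 0.25. With MMF they were Cd86 (1.02), Cd274 (0.52), Cd47 (0.46) and Slamf7 (2.32), and Cd40 (-1.14), Cd83 (-1.61) and Cd69 (-0.78), with Cd48, Cd80 and Icosl from -0.08 to 0.66. With CBD they were Cd86 (1.70), Cd274 (1.54), Cd47 (0.74) and Slamf7 (3.16), and Cd40 (-0.41), Cd83 (-1.38), Cd69 (-1.34) and Icosl (-0.98), with Cd80 at -0.21. These shares lie on both sides of the background. The DMSO count was 1 without DMSO at 24 h replicate 5. Calls lost without at least 1 library were Cd69 and Cd47 in DMSO, Cd83 in EtOH, and Cd274 and Icosl in LPS. With MMF they were Cd83, Cd274 and Cd47, and with CBD Cd40 and Cd83. With the block Cd47 also rose with time in LPS (0.34, adjusted p = 0.00752). Icosl rose with time in both vehicles (0.77, adjusted p = 0.000677 in DMSO and 0.92, adjusted p = 0.000238 in EtOH) and fell with CBD (-0.98, adjusted p = 6.07e-05). Cd69 fell with time in both vehicles, with LPS, with MMF and with CBD, and rose with DMF (1.92, adjusted p = 2.54e-05). In DMSO that fall (-0.69, adjusted p = 0.0285) was lost by DESeq2 (adjusted p = 0.0662), without the filter (0.0576) and without DMSO at 4 h replicate 5 or 6 or DMSO at 24 h replicate 5 (log2 fold change -0.70 to -0.50, adjusted p = 0.0705 to 0.109). Slamf7 rose with time in EtOH and in the 4 groups with LPS, most with CBD (3.16, adjusted p = 2.05e-05). Time and the length of serum reduction go together in this design and cannot be told apart.

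The wider pathway was read from lists of named genes, and each count is to be read beside the share of all genes called, which was 14.1% and 10.2% for LPS against DMSO and EtOH at 4 h, 11.1% and 25.1% for DMF against LPS at 4 h and 24 h, and 48.7% for CBD against LPS at 24 h. Of 14 genes of CD40 and TNF receptor signalling, all tested, LPS raised 7 and lowered 1 against DMSO at 4 h, with a list median of 0.35 on the log2 scale, and raised 7 against EtOH, with Traf1 (2.81 ± 0.38) and Ikbke (2.06 ± 0.08) again the largest. Values are log2 fold changes ± SE. The largest rises against DMSO were Traf1, an adaptor of TNF receptors (2.93 ± 0.46), and Ikbke, a kinase related to the IkB kinases (2.17 ± 0.08), and Map3k14, the kinase of the noncanonical NF-kB route, was lower (-0.42 ± 0.12). DMF at 4 h lowered 2 of the 14, Ikbke (-1.87 ± 0.16) and Tnfaip3, an inhibitor of NF-kB (-1.02 ± 0.25). CBD at 24 h raised 1, Traf6 (0.35 ± 0.10), and lowered 4, most of all Map3k14 (-0.75 ± 0.10) and Nfkb2 (-0.51 ± 0.11), 5 of 14 being a share below the 48.7% of all genes. Of 31 other costimulatory and inhibitory ligands and receptors, 15 or 16 had enough reads to test. LPS raised 3 and lowered 1 of 15 against DMSO at 4 h, with Tnfsf15 (2.41 ± 0.52) and Tnfrsf9, the receptor 4-1BB (1.46 ± 0.23), the largest rises, and Vsir (VISTA) lower (-1.03 ± 0.29). DMF raised 2 of 15 at 4 h, Tnfsf4, the ligand of OX40 (2.33 ± 0.40), and Pvr (0.51 ± 0.10), and 4 of 16 at 24 h, a share near the 25.1% of all genes, with Tnfsf14 at 1.18 ± 0.31 and Havcr2 (TIM-3) at 0.92 ± 0.17. CBD at 24 h raised 4 and lowered 2 of 16, among them Tnfsf18 (1.68 ± 0.25), Cd28 (1.67 ± 0.10), Btla (-1.10 ± 0.15) and Vsir (-0.90 ± 0.23). That share too is below the 48.7% of all genes.

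Of 14 genes of the SLAM and CD2 families, their adaptors and tetraspanins, 10 were tested. DMF at 24 h raised 6 and lowered 0, with Slamf9 (0.76 ± 0.13) and Cd82 (0.59 ± 0.09) the largest, and a list median of 0.33 beside -0.0071 over all genes. CBD at 24 h raised 5 and lowered 1 of the 10, beside 48.7% of all genes (23.9% higher and 24.8% lower). Cd2 rose by 1.85 ± 0.31 and Cd84 by 1.07 ± 0.18, whereas Cd244a, a receptor for CD48, was lower (-1.93 ± 0.14), as was Cd48 itself. Of 8 partners of CD47, 7 were tested. DMF at 4 h lowered 3, among them Sirpa, the receptor of CD47 on phagocytes (-0.92 ± 0.08), and Ptpn6, the phosphatase SHP-1 that SIRPα recruits (-0.91 ± 0.12). CBD at 24 h raised 2, Itgb3 (2.24 ± 0.12) and Sirpa (0.89 ± 0.11), and lowered 4, of which Ptpn6 (-1.26 ± 0.19) and Ptk2b (-0.47 ± 0.13) fell most. MMF called 0 genes of these lists at either time by limma.

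The genes whose pattern was most like each member were named by Pearson's r over the 12 group means of log2 normalized counts, as a description over points that share libraries and times. Cd83 and Cd48 were under the limit of 50 normalized counts in every group. For Cd40 they were Mx2 (r = 0.97), Cmpk2 (0.97) and Cxcl10 (0.96), for Cd69 Gbp3 (0.97), Eif2ak2 (0.97) and Slfn3 (0.96), and for Cd274 Aoah (0.98), Oas1a (0.97) and Cp (0.96). For Cd80 they were Stk10 (0.95), Notch2 (0.94) and Degs1 (0.93), and for Cd86 Gga1 (0.98), Cd300ld (0.97) and Arap1 (0.97). For Icosl they were Egr2 (0.95), Igsf9 (0.93) and Il10ra (0.93), for Cd47 Cflar (0.99), Ifi202b (0.98) and Rhoc (0.98), and for Slamf7 Fgfrl1 (0.98), Tctn1 (0.98) and Ypel2 (0.97).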

How the data were processed

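The authors deposited 30 pairwise tables, each with normalized read counts of 6 libraries (unit: signal, reads divided by DESeq2 size factors within that table) beside log2 fold changes, standard errors, Wald statistics, p-values and adjusted p-values of their own comparisons, which were not used. Per the labels, reads were processed with FastQC 0.12.1, cutadapt 4.4, Trimmomatic 0.39, HISAT2 2.2.1, HTSeq 2.0.3 and DESeq2 1.40.2 in R 4.3.1 on GRCm39. The strand setting of counting was not given in the sources used here. Each deposited normalized count was converted back to reads with the step of its column, and 100% of 2695078 values were whole within 0.01 reads. The reads recovered for a library were the same in every table that holds it.

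Main tests used limma 3.58.1 (lmFit, eBayes with trend, R 4.3.3) on log2(deposited value + 1) within 1 table, for genes with 10 or more in at least 3 of its 6 libraries, with Benjamini-Hochberg adjustment over all genes tested and a threshold of 0.05. Changes of effect with time were interaction terms over 12 libraries. Levels are reads divided by median-of-ratios factors over all 36 libraries, since the tables were normalized separately, and all library values printed are on that scale. Alternatives were edgeR 4.0.16 (quasi-likelihood) and DESeq2 1.42.0 on the recovered reads, a pseudocount of 8, no filter, an absolute log2 fold change above 1, all libraries in 1 fit, each library left out, and the replicate number as a block. edgeR called 1268 genes for DMF against LPS at 4 h and 5705 for CBD against LPS at 24 h, where limma called 1257 and 5687. The pairwise limma, edgeR and DESeq2 tests were tried on simulated reads modelled on DMF against LPS at 4 h. The interaction and block fits were not.

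Replicates 1 to 3 (LPS groups) and 4 to 6 (vehicles) are numbered in the labels, which say that experiments were repeated 3 times, and p-values measure the spread between these samples. By deviations from group means, every same-numbered pair correlated above 0.1 in DMF against LPS and CBD against LPS (both times), MMF against LPS at 24 h, DMF against MMF at 24 h, DMSO against EtOH (both times), and between the times in LPS and in MMF, so these were taken as paired. The sources used here do not state this pairing, and it was read from the same values as the tests. In some of these comparisons a differently numbered pair correlated more than the lowest same-numbered pair. Examples were 0.31 against 0.17 in DMF against LPS at 4 h and 0.25 against 0.20 in DMF against MMF at 24 h. Results with the block are alternatives to the main tests. The block called more genes than the main test. In DMF against LPS it called 1714 of 11371 genes at 4 h, beside 1257 without it. At 24 h it called 4566 of 11670, beside 2926 without it. Replicates differed beyond sampling noise (chi-square per degree of freedom 4.84 to 31.1), so none was counted as a copy. All 10 genes are reported in every comparison, the called ones by name and the others by value or by the range of their values. For each of the 4 gene lists, and for class II presentation and reference genes, the called genes with the largest rises and falls are named in the comparisons described, up to 2 in each direction. The members and lists were chosen with earlier results of these data known. The result for 1 further promoter motif is not reported here.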

Additional observations from a re-analysis of the deposited data

Results flagged for a closer look

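The effect of a treatment differed between 4 h and 24 h, by an interaction test over 12 libraries, in 16 cases. All values below are the log2 effect at 24 h minus that at 4 h, with adjusted p from limma. Under DMF against LPS it moved upward for Cd40 (1.56 ± 0.21 SE, adjusted p = 0.000276), Cd83 (4.05 ± 0.58 SE, adjusted p = 0.00042) and Cd69 (2.87 ± 0.26 SE, adjusted p = 9.75e-06). It did so as well for Cd80 (0.92 ± 0.17 SE, adjusted p = 0.00265), Cd86 (1.16 ± 0.26 SE, adjusted p = 0.00768), Cd274 (0.78 ± 0.22 SE, adjusted p = 0.0292) and Icosl (0.75 ± 0.23 SE, adjusted p = 0.0415). Cd274 and Icosl started below LPS at 4 h, whereas Cd80 and Cd86 were near LPS at 4 h and above it at 24 h.

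Under CBD against LPS the effect moved upward for Cd40 (0.91 ± 0.22 SE, adjusted p = 0.0064), Cd86 (0.85 ± 0.27 SE, adjusted p = 0.0263) and Cd274 (1.07 ± 0.25 SE, adjusted p = 0.00547). It moved downward for Cd48 (-1.65 ± 0.55 SE, adjusted p = 0.0349) and Icosl (-1.49 ± 0.21 SE, adjusted p = 0.00018). Under LPS the effect on Cd40 moved by -1.38 against DMSO and -1.56 against EtOH, and that on Cd83 by -2.94 and -3.82. All the tests of DMF, CBD and LPS share the LPS libraries.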

How the results depend on the processing

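No result changed direction with a call. Of 136 member calls, 98 held without each library in turn, and 24 values that were not called passed without at least 1 library. edgeR and a pseudocount of 8 each kept the side of the threshold in 302 of 302 values, DESeq2 in 234 of 244 (5 lost, 5 gained), no filter in 246 of 252 (6 lost) and 1 fit of all libraries in 242 of 252 (3 lost, 7 gained). DESeq2 gave no adjusted p for 8 further values. Requiring an absolute log2 fold change above 1 left 2 of 6 members in LPS against DMSO and 2 of 6 against EtOH at 24 h, 1 of 4 in DMF against LPS at 24 h, 0 of 4 in DMF against DMSO at 4 h, 2 of 6 in MMF against DMSO at 24 h and 1 of 4 in DMF against MMF at 24 h. For 24 h against 4 h it left 0 of 3 in DMSO, 3 of 5 in EtOH, 3 of 7 in LPS, 4 of 7 in MMF and 5 of 8 in CBD, and DESeq2 called 1 of 3 in DMSO. The cause was not tested, except that this limit removes small changes by construction.

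Without 1 library the counts ranged from 3 to 6 (LPS against DMSO, 24 h), 3 to 7 (LPS against EtOH, 24 h), 2 to 5 (DMF against LPS, 24 h), 2 to 4 (DMF against DMSO, 4 h), 3 to 8 (CBD against EtOH, 4 h), 1 to 4 (24 h against 4 h, DMSO) and 3 to 5 (CBD effect over time). The replicate block called 1 member in DMSO against EtOH at 4 h (0 without it), where it called 876 of 11458 genes (0 without it). Over 183 values it gained 13 and lost 0. Those in comparisons taken as paired, and those of Cd47 in the DMF and CBD effects over time, stand beside their results. For these Cd47 values the block joins both times, and the libraries with DMF or CBD were not taken as paired between the times. Where the libraries share a number only, it gained Cd86 with time in DMSO and in EtOH and Cd80 with time under CBD (adjusted p = 0.0404, 0.0487 and 0.0496). No paired analysis was possible because, for LPS or a drug against vehicle, the groups share no replicate number (1 to 3 against 4 to 6) and the labels tie no vehicle number to an LPS number. Depth limits Cd83, Cd48 and Slamf7, whose groups held as few as 15, 12 and 20 reads.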

Other observations

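Of 8 genes of class II antigen presentation, 3 or 4 had enough reads to test. LPS at 24 h raised 2 of 3 against DMSO, where 22.7% of all genes were called, and 2 of 3 against EtOH (20.5%), Cd74, the invariant chain (0.55 ± 0.12 and 0.56 ± 0.11), and Ctss (0.54 ± 0.09 and 0.35 ± 0.07). At 4 h 0 of 4 passed against either vehicle (14.1% and 10.2% of genes called). At 24 h Ctss, the lysosomal protease cathepsin S, moved in opposite directions with the drugs against LPS, lower with DMF (-0.64 ± 0.07, log2 fold change ± SE) and higher with CBD (0.33 ± 0.10). The difference between the drugs was not tested, since their doses differed. Reference genes in general use were not flat. Of 6, LPS raised 2 against DMSO at 4 h, Actg1 (0.89 ± 0.16) and Actb (0.50 ± 0.13), both cytoplasmic actins. DMF at 24 h raised Actg1 (0.56 ± 0.08) and Actb (0.43 ± 0.10) and lowered Hprt (-0.39 ± 0.10) against LPS.

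Summed over their lists, the other cell type markers gave 10.1 to 33.0 normalized counts per library for B cells (5 of 5 with reads), 161 to 328 for dendritic cells (5 of 5, mostly Zbtb46), 5.66 to 27.2 for astrocytes (3 of 4), 0 to 6.27 for neurons (2 of 4) and 726 to 1579 for oligodendrocytes (4 of 4, mostly Mbp). Under CBD at 24 h the microglial receptor gene Cx3cr1 was -4.09 ± 0.42 and Csf1r -0.87 ± 0.22 against LPS on the log2 scale, whereas Cd68, a lysosomal marker of macrophages, was 1.12 ± 0.13. These genes are examples from the 12 microglia and macrophage markers, in a comparison where 48.7% of all genes were called. The sum of the whole list overlapped LPS alone, at 33303 to 43727 with CBD against 33963 to 44668.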
